A study of Mus musculus with 8 samples.

Results

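The Piwi proteins and the cofactors of Piwi-interacting RNAs (piRNAs) are described here as 10 genes chosen by name: Piwil1, Piwil2, Piwil4, Mov10l1, Pld6, Henmt1, Asz1, Gtsf1, Mael and Ddx4. All 10 were found among the 48440 genes of the tables, and all 10 passed the filter on low counts that left 25045 genes for testing. Their mRNA was measured by stranded paired-end RNA sequencing of total RNA in 8 mouse libraries, 2 for each of 4 groups. The groups were metaphase II (MII) oocytes, germinal vesicle (GV) oocytes, in vitro epiblast cells (EpiC) and embryonic stem cells (ESC). Per the labels, the oocyte donors received PMSG (5 units) 48 h ahead of a further injection whose content is not stated, and GV oocytes were kept in 2 µM milrinone, which holds them in meiotic arrest. The MII samples carry the same protocol text as the GV samples, so how they matured is not given. ESC grew with 15% serum, LIF and the inhibitors PD0325901 and CHIR99021, and EpiC are the same kind of cells 24 h after plating plus about 56 h without LIF and inhibitors. No strain, age or cell line is given, and the labels do not say whether replicates are separate cultures or animals, so p-values measure only the spread between these libraries.

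piRNAs are small RNAs of the animal germ line that guide Piwi proteins to transposon transcripts and to the DNA that encodes them. In mice, long precursor RNAs are unwound by MOV10L1 and cut on the outer mitochondrial membrane by PLD6, their ends are methylated by HENMT1, and loaded Piwi proteins work with GTSF1, MAEL, the helicase DDX4 and the membrane protein ASZ1. The pathway is best known from the testis, where loss of most of these genes stops sperm formation. Mouse oocytes also hold piRNAs, together with endogenous siRNAs, and female mice lacking many of these genes are fertile. The libraries here measured mRNA, not piRNAs or protein.

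Total estimated counts ran from 47463546 to 196788239 per library, and in each group replicate 2 held 2.36 to 3.31 times the counts of replicate 1. Gm42418, a gene model that collects ribosomal RNA reads, took 22.7% of the counts of EpiC 2 and 14.7% of those of ESC 2. Zp3, Nanog and Fgf5, chosen as a check of the labels, fitted the groups, though not every marker listed for these cell types did. The epiblast marker Lef1 measured 112 and 188 TPM in MII, against 19.2 and 10.04 TPM in EpiC. Otx2, Pou3f1 and Dnmt3b, also listed for epiblast, were highest in EpiC. The 5 epiblast markers summed to 127 and 205 TPM in MII and 147 and 626 TPM in EpiC, so these sums overlapped. Esrrb, a marker of naive pluripotency, measured 146 and 190 TPM in GV, against 4.71 and 4.06 TPM in EpiC. Esrrb was highest in ESC, at 294 and 222 TPM. Zp3, a protein of the egg coat, measured 54.6 and 173 TPM in MII, 3001 and 3770 TPM in GV, and at most 9.73 TPM in any cultured library. Nanog, a pluripotency factor, measured at most 0.0161 TPM in oocytes and at least 91.1 TPM in EpiC and ESC. Fgf5, an epiblast marker, measured 55.3 and 18.9 TPM in EpiC and at most 0.1001 TPM elsewhere. TPM is a transcript's share of all transcripts after division by its length, so TPM can be compared between genes. It cannot tell fewer cells of a type from less RNA per cell.

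Promoter sequences were read for 9 of the 10 genes from RefSeq windows on GRCm38.p6 that run from 250 bases before to 50 bases after a start site, 11 windows in all. The E-box CACGTG, which reads the same on both strands and is the site of basic helix-loop-helix factors, lay in a window of 5 genes, Piwil1, Mov10l1, Pld6, Mael and Ddx4. It lay in 7.15% of all 32851 windows of the table. The E2F-type motif GCGGGAA, searched on both strands, lay in the window of Ddx4 and in 4.6% of all windows. The NOBOX-type motif TAATTG lay in none of the 11 windows and in 8% of all windows. One window of Piwil4 held 0 CG dinucleotides and the others held 11 to 38, against a median of 7 over all windows. The E-box itself contains a CG, and its share among windows of like CG content was not counted. The stretches below show where the E-box, in capitals, sits in the genes that were higher in EpiC than in ESC (Mael, Mov10l1 and Ddx4) and in Piwil1, and show Gtsf1, the most abundant of the 10 in GV, which holds none of the 3 motifs. Except for Ddx4, each runs from the upstream end of the window to the base before the first annotated start that lies in it. Mael is on the minus strand at chr1:166238748-166238994, Mov10l1 on the plus strand at chr15:88982744-88982908, Piwil1 on the plus strand at chr5:128735996-128736173 and Gtsf1 on the minus strand at chr15:103430471-103430677. For Ddx4 only the 30 bases around the E-box are given, minus strand, chr13:112652322-112652351, because this E-box lies inside the annotated transcript Ddx4-202, whose start is 165 bases upstream of the RefSeq start.
Mael: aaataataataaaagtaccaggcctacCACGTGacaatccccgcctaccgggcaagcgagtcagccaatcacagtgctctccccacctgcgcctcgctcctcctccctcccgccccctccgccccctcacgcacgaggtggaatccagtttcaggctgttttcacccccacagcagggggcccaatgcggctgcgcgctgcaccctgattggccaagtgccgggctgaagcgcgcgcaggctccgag
Mov10l1: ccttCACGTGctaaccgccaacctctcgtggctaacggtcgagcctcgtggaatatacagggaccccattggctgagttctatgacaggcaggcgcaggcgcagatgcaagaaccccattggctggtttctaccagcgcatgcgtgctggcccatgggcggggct
Piwil1: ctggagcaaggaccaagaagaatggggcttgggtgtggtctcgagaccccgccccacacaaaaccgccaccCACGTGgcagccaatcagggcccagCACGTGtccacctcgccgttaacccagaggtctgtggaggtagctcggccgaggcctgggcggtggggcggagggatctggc
Gtsf1: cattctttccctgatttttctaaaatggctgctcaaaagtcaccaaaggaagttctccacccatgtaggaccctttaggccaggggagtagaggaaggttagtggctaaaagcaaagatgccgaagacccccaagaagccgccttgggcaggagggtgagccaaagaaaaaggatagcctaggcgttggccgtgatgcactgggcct
Ddx4: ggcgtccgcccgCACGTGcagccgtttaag
Counted from the RefSeq start, the first base of the E-box is at −223 in Mael, −246 in Mov10l1, −29 in Ddx4, −33 in Pld6, and −179 and −154 in Piwil1. These matches are letters in a window, and no binding was measured. Piwil1 and Pld6, which also hold the E-box, were not called in EpiC against ESC.

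Among the Piwi proteins, Piwil1 was an oocyte mRNA, while Piwil2 and Piwil4 were low and lowest in MII. Piwil1, which encodes MIWI (ENSMUSG00000029423.10, GRCm38 chromosome 5, 128702524 to 128755474, plus strand), measured 7.69 and 8.95 TPM in MII, 17.6 and 13.3 TPM in GV, 0.351 and 0.172 TPM in EpiC, and 0.814 and 0.559 TPM in ESC. No 2 groups overlapped, and the order from high to low was GV, MII, ESC and EpiC. Piwil2, which encodes MILI (ENSMUSG00000033644.4, chromosome 14, 70372477 to 70429383, minus strand), measured 0.0892 and 0.421 TPM in MII, 3.93 and 1.62 TPM in GV, 4.65 and 3.56 TPM in EpiC, and 1.19 and 2.37 TPM in ESC. MII lay below every other library, while GV overlapped both EpiC and ESC. Piwil4, which encodes the nuclear protein MIWI2 of fetal male germ cells (ENSMUSG00000036912.17, chromosome 9, 14696230 to 14740733, minus strand), measured 0.0116 and 0.0176 TPM in MII, 0.332 and 0.187 TPM in GV, 0.221 and 0.277 TPM in EpiC, and 0.0371 and 0.113 TPM in ESC. The MII values of Piwil4 rest on 1 and 4.03 estimated counts, and no library reached 1 TPM.

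Of the biogenesis enzymes, Henmt1 was highest in GV, Mov10l1 was low everywhere and Pld6 was nearly level. Mov10l1, the RNA helicase that starts precursor processing (ENSMUSG00000015365.15, chromosome 15, 88982909 to 89055152, plus strand), measured 1.21 and 0.673 TPM in MII, 3.48 and 2.63 TPM in GV, 4.70 and 4.28 TPM in EpiC, and 1.20 and 1.13 TPM in ESC. EpiC stood above GV, GV above the rest, and MII and ESC overlapped. Pld6, the mitochondrial nuclease also called Zucchini (ENSMUSG00000043648.7, chromosome 11, 59783897 to 59787645, minus strand), measured 4.71 and 7.66 TPM in MII, 4.22 and 6.03 TPM in GV, 4.08 and 4.44 TPM in EpiC, and 4.72 and 6.81 TPM in ESC. Every neighbour in its order overlapped, and its highest group mean was 1.45 times its lowest. Henmt1, the methyltransferase of piRNA ends (ENSMUSG00000045662.16, chromosome 3, 108939873 to 108960774, plus strand), measured 6.04 and 6.78 TPM in MII, 111 and 116 TPM in GV, 1.14 and 1.04 TPM in EpiC, and 0.116 and 0.406 TPM in ESC. Its 4 groups did not overlap.

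The cofactors included the most abundant mRNAs of the 10. Asz1, which encodes the mitochondrial membrane protein GASZ (ENSMUSG00000010796.11, chromosome 6, 18050964 to 18109061, minus strand), measured 41.5 and 28.1 TPM in MII, 130 and 79.2 TPM in GV, 0.574 and 0.238 TPM in EpiC, and 0.124 and 0.354 TPM in ESC. Both oocyte groups stood far above the cultured cells, which overlapped each other. Gtsf1, a zinc finger protein that binds Piwi proteins and speeds target cleavage (ENSMUSG00000022487.14, chromosome 15, 103402405 to 103430470, minus strand), measured 12.1 and 21.1 TPM in MII, 1008 and 832 TPM in GV, 1.21 and 0.552 TPM in EpiC, and 1.95 and 1.502 TPM in ESC. Gtsf1 alone made up 71.9% and 74.1% of the summed TPM of the 10 genes in GV, and 11.3% and 21.6% in MII. Mael, the HMG-box protein Maelstrom (ENSMUSG00000040629.8, chromosome 1, 166201201 to 166238747, minus strand), measured 7.54 and 4.80 TPM in MII, 84.7 and 58.0 TPM in GV, 20.8 and 14.0 TPM in EpiC, and 1.46 and 1.99 TPM in ESC. None of its groups overlapped, and EpiC stood above MII. Ddx4, the helicase Vasa that marks germ cells (ENSMUSG00000021758.13, chromosome 13, 112598333 to 112652475, minus strand), measured 25.6 and 19.0 TPM in MII, 39.3 and 13.7 TPM in GV, 25.0 and 17.3 TPM in EpiC, and 2.85 and 3.93 TPM in ESC. MII, GV and EpiC overlapped for Ddx4, and ESC stood below all of them.

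**Figure D1:**
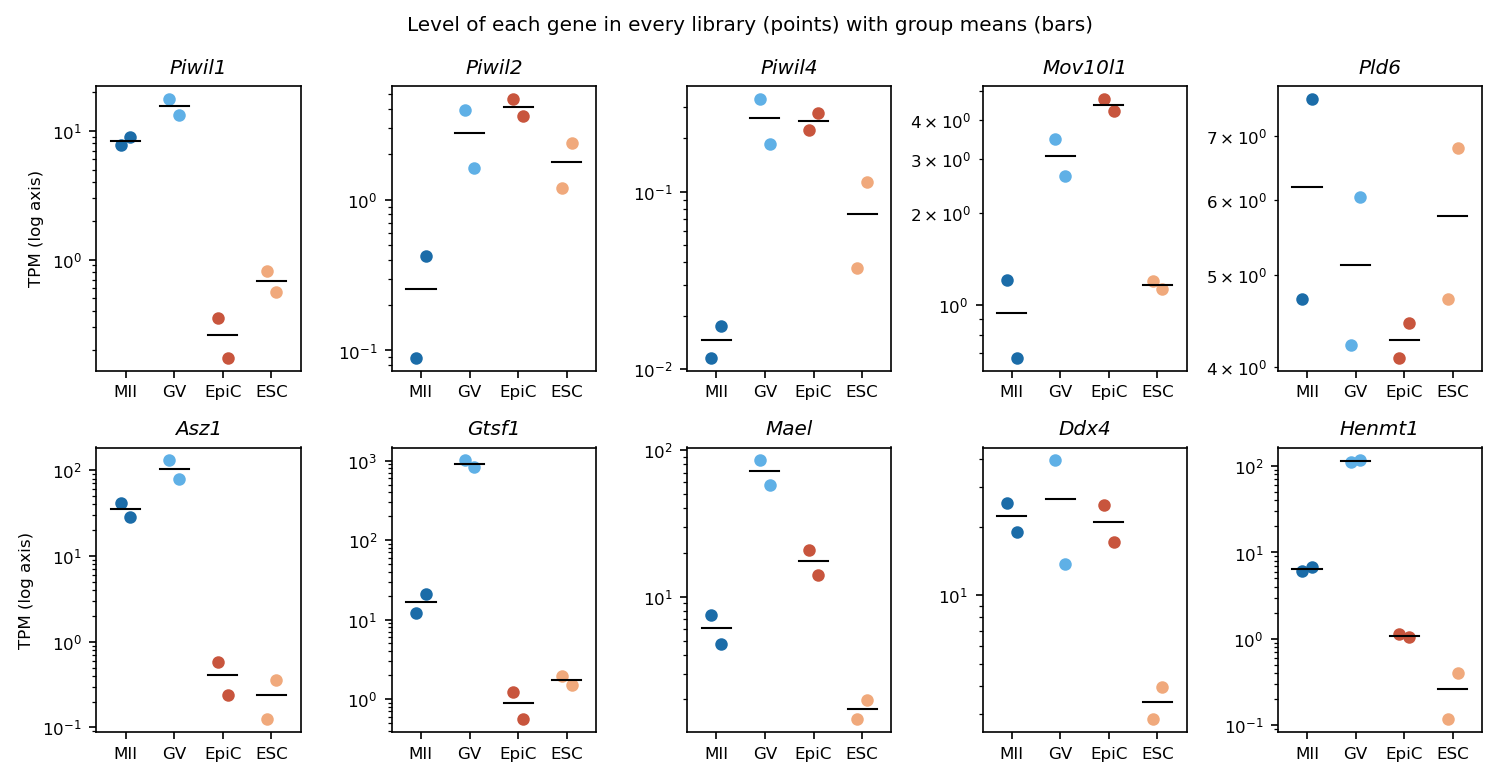
TPM (log axis) of each of the 10 genes in every library, with groups MII, GV, EpiC and ESC from left to right, points for single libraries and bars for group means of 2 libraries. Gtsf1 reaches 1008 and 832 TPM in GV, Pld6 stays between 4.08 and 7.66 TPM in all 8 libraries, and Piwil4 stays below 1 TPM.

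The summed level of the 10 genes was 97.6 and 106 TPM in MII, 1123 and 1403 TPM in GV, 45.9 and 62.8 TPM in EpiC, and 14.5 and 19.2 TPM in ESC when each pair is given from low to high. Different genes led each group. In MII, Asz1 held the largest share of that sum, with 39.0% and 28.9%, and Ddx4 held 24.0% and 19.5%. In EpiC, Ddx4 held 39.9% and 37.7% and Mael 33.2% and 30.6%. In ESC, Pld6 led with 32.6% and 35.5%.

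The first comparison set GV oocytes against ESC. In GV, 7 of the 10 genes rose, none fell and 3 did not pass, where 28.3% of all genes tested were called higher and 31.3% lower by edgeR's quasi-likelihood test at an adjusted p under 0.05. At an unadjusted p under 0.05 the same 7 genes passed, where 16309 of the 25045 genes tested passed in either direction. No setting, DESeq2 included, called any of the 10 lower. The median log2 fold change was 4.03 over the 10 genes and −0.51 over all genes. Gtsf1 rose most, with a log2 fold change of 9.38 ± 0.57 (SE; edgeR adjusted p = 6.86e-06), followed by Henmt1 with 8.97 ± 0.66 (adjusted p = 1.41e-05) and Asz1 with 8.95 ± 0.69 (adjusted p = 1.64e-05). Mael rose by 5.66 ± 0.47, Piwil1 by 4.82 ± 0.48, Ddx4 by 3.25 ± 0.51 and Mov10l1 by 2.07 ± 0.48 on the log2 scale. Both GV libraries stood above both ESC libraries in TPM for all 7. This is no separate support, since the calls come from the same libraries, and the share of all genes that do so was not counted. All 7 calls held under the 15 other settings tried, with Mov10l1 at 0.90 for limma on log2(TPM + 1). The values of Piwil2 (0.92 ± 0.75), Piwil4 (1.43 ± 0.87) and Pld6 (0.21 ± 0.51) did not pass. Piwil4 passed when limma was run on log2(TPM + 1) or log2(TPM + 0.1), with adjusted p of 0.0463 and 0.0375. The 7 markers of cumulus and granulosa cells, which surround the oocyte, summed to 29.9 and 131 TPM in GV, against 0.788 and 2.06 TPM in ESC, with Fshr at 0 in ESC. Of these 7 markers, Fshr, Inha and Cyp19a1 were called higher in GV and none lower. Their spread in GV was mostly Inha, at 4.66 TPM in GV 1 and 105 TPM in GV 2. Of the 7 genes called, Henmt1 was higher in GV 2 than in GV 1 (111 TPM in GV 1 and 116 TPM in GV 2) and the other 6 were lower there. The part of these markers in the result was not tested.

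In the second comparison, MII oocytes against EpiC, the 10 genes split. In MII, 6 rose, 3 fell and 1 did not pass, where 28.5% of all genes were called higher and 39.6% lower. The median log2 fold change was 1.79 over the 10 genes and −1.23 over all genes. Of all calls here 41.8% were higher, and 29.1% and 28.1% with limma on log2(TPM + 1) and log2(TPM + 0.1). Asz1 rose by 8.31 ± 0.67 on the log2 scale (edgeR adjusted p = 1.37e-05), Piwil1 by 6.22 ± 0.51 (adjusted p = 1.55e-05), Gtsf1 by 5.85 ± 0.50 (adjusted p = 1.81e-05) and Henmt1 by 4.12 ± 0.53 (adjusted p = 0.000148). These 4 calls held under all 15 other settings, though limma on log2(TPM + 1) gave 4.66 for Asz1, 2.89 for Piwil1, 3.20 for Gtsf1 and 1.83 for Henmt1. That fit compresses low values and also scales libraries differently, with the median of all genes moved by −0.66 relative to the main fit. Ddx4 and Pld6 rose by 1.54 ± 0.48 (adjusted p = 0.0179) and 2.04 ± 0.53 (adjusted p = 0.00742), but their TPM ranges differed little between the groups. With limma on log2(TPM + 1) their differences were 0.082 (adjusted p = 0.893) and 0.42 (adjusted p = 0.262), and Ddx4 also lost its call without EpiC 2 (adjusted p = 0.0763). The 2 scales differ in how libraries are scaled. The TMM factors, edgeR's correction for the makeup of a library, were 0.422 and 0.405 in MII and between 1.07 and 1.58 in the other 6 libraries, so a fold change is relative to the bulk of mRNAs and not an amount per cell. Piwil2 fell by 2.49 ± 0.79 (adjusted p = 0.0196) and lost its call without MII 1, at −1.58 (adjusted p = 0.106), while its value without MII 2 was −3.91. Mov10l1 fell by 1.31 ± 0.47 (adjusted p = 0.033) and lost its call in 8 of 15 settings. Among these, leaving out MII 1 gave −0.90, MII 2 −1.36, GV 1 −1.12, EpiC 1 −1.22, EpiC 2 −1.39 and ESC 1 −1.30. For Piwil4, 5 rounded counts over both MII libraries stood against 93 in EpiC, a TMM-scaled ratio of 0.114 with an exact 95% interval of 0.0362 to 0.276 that covers counting error only. Its edgeR call (adjusted p = 0.0224) was lost without MII 1 (adjusted p = 0.117), MII 2 (0.1), GV 1 (0.0518) or EpiC 2 (0.0643). Mael did not pass at −0.031 ± 0.39, and with limma on log2(TPM + 1) its value was −1.36 with an adjusted p of 0.011. The markers of cumulus and granulosa cells summed to 47.1 and 48.7 TPM in MII, against 9.50 and 20.8 TPM in EpiC. Cyp19a1 made up most of the MII sum, with 47.4 and 44.5 TPM in MII and at most 0.126 TPM in EpiC, and Has2 most of the EpiC sum, with 1.08 and 0.632 TPM in MII and 19.9 and 7.53 TPM in EpiC. Of the 7 markers, Cyp19a1 and Fshr were called higher in MII, and Amh and Has2 lower. Their part in the result was not tested.

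**Figure D2:**
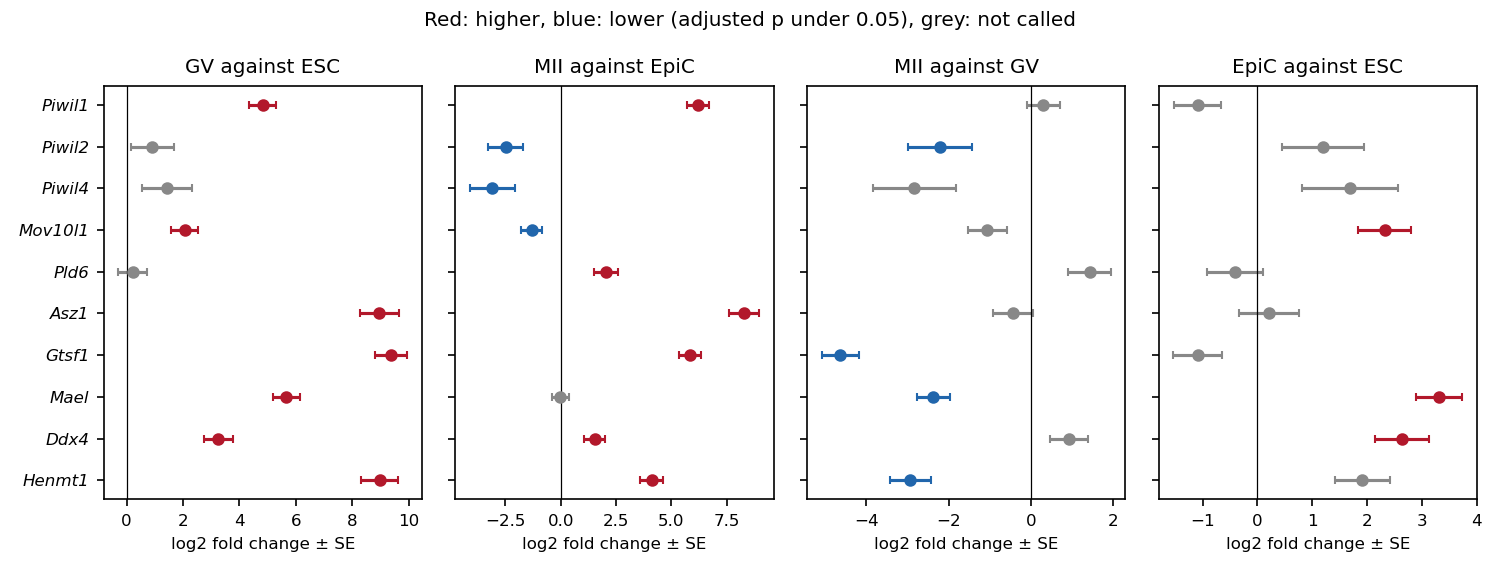
Log2 fold change ± SE of the 10 genes in each of the 4 comparisons, from edgeR on TMM-scaled counts, with 2 libraries a group. Red points are called higher, blue points lower and grey points are not called at an adjusted p of 0.05. The 7 calls of GV against ESC are all higher, the 4 calls of MII against GV are all lower.

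The third comparison followed the oocyte itself, MII against GV. Of the 10 genes, 4 fell, none rose and 6 did not pass, where 17.4% of all genes were called higher and 22.2% lower, and the median log2 fold change was −1.63 over the 10 genes and −0.53 over all genes. At an unadjusted p under 0.05, 6 of the 10 passed, where 12057 of the 25045 genes tested passed in either direction. With relative log expression or DESeq2, 1 of the 10, Pld6, was called higher, and without GV 1 it was Ddx4. Of all calls 43.9% were higher, and 22.8% and 20.0% with the 2 limma fits on TPM. Gtsf1 fell by 4.63 ± 0.46 on the log2 scale (edgeR adjusted p = 0.000518), Henmt1 fell by 2.93 ± 0.50 (adjusted p = 0.00159) and Mael fell by 2.37 ± 0.40 (adjusted p = 0.00163), with both MII libraries below both GV libraries. That order of the libraries is no separate support, since the calls come from the same libraries. These 3 calls held under all 15 other settings. Piwil2 fell by 2.20 ± 0.78 (adjusted p = 0.0492), and this call was lost with a length offset and without MII 1 (−1.60), GV 1 (−1.63), GV 2 (−2.68) or EpiC 1 (−2.21), and the value without MII 2 was −3.91. Piwil4, at 5 against 85 rounded counts and a ratio of 0.159 (exact 95% interval 0.0504 to 0.386), lay on the threshold with an adjusted p of 0.05 and was not called. It was called lower in edgeR with relative log expression (adjusted p = 0.0484) or a replicate block (adjusted p = 0.0381). Limma on log2(TPM + 1) and log2(TPM + 0.1) also called it lower, with adjusted p of 0.0198 and 0.0084. Asz1 (−0.43 ± 0.48), Mov10l1 (−1.05 ± 0.47), Piwil1 (0.31 ± 0.41), Ddx4 (0.93 ± 0.47) and Pld6 (1.43 ± 0.52) did not pass.

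**Figure D3:**
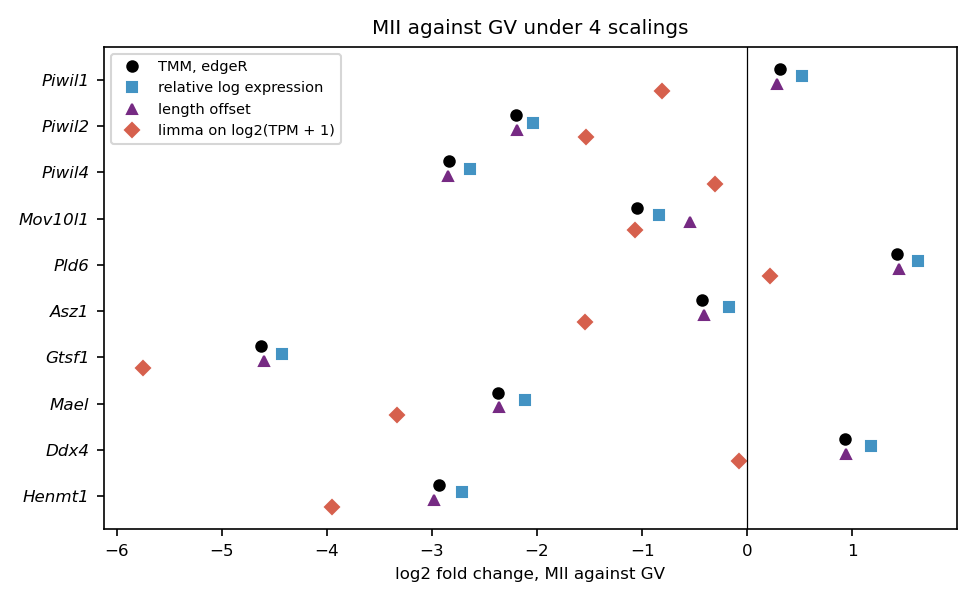
Log2 fold change of MII against GV for the 10 genes under TMM scaling in edgeR (circles), relative log expression (squares), a length offset (triangles) and limma on log2(TPM + 1) (diamonds). Gtsf1, Henmt1, Mael and Piwil2 lie below 0 under each, while Piwil1 and Ddx4 turn from above 0 to below 0 with limma on TPM.

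The directions of Piwil1 and Ddx4 turned with the scaling, while Asz1, Mov10l1 and Piwil4 stayed below 0 and Pld6 above 0 in all 15 other settings. With limma on log2(TPM + 1), the median of all genes moved by −0.61 relative to TMM and by −1.02 with log2(TPM + 0.1), while relative log expression moved it by 0.21. On the log2(TPM + 1) scale 8 of the 10 genes were called lower, Piwil1 with −0.81 (adjusted p = 0.0285), Asz1 with −1.54 (adjusted p = 0.00964) and Mov10l1 with −1.07 (adjusted p = 0.00787) among them. Of the 25045 genes tested, 8164 were called lower on that scale, against 5572 with TMM. The TPM of Asz1 in MII lay below that in GV without overlap, while the fold change of its TMM-scaled counts lay within the spread between libraries.

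The fourth comparison, EpiC against ESC, asked what changed as pluripotent cells left the naive condition. In EpiC, 3 of the 10 genes rose, none fell and 7 did not pass, where 2.63% of all genes were called higher and 2.83% lower. The median was 1.45 over the 10 genes and 0.028 over all genes. At an unadjusted p under 0.05, 6 of the 10 passed, where 4450 of the 25045 genes tested passed in either direction. No setting, DESeq2 included, called any of the 10 lower. Mael rose by 3.32 ± 0.42 on the log2 scale (edgeR adjusted p = 0.00359), and its call held under all 15 other settings. Ddx4 rose by 2.64 ± 0.50 (adjusted p = 0.0175) and lost its call without ESC 1, at 2.37 (adjusted p = 0.143), or ESC 2, at 2.94 (adjusted p = 0.0581). Mov10l1 rose by 2.32 ± 0.48 (adjusted p = 0.0258) and lost its call without EpiC 1, EpiC 2, ESC 1 or ESC 2, where its value lay between 2.14 and 2.51. Without ESC 1, Mael was the 1 gene of the 10 still called, and 135 genes of the whole table were called higher, against 659 in the full fit. Henmt1 reached 1.92 ± 0.51 (adjusted p = 0.0643) and passed in 6 of the 15 other settings, DESeq2 among them (adjusted p = 0.00162). Piwil1 (−1.09 ± 0.43), Gtsf1 (−1.09 ± 0.44), Asz1 (0.22 ± 0.55), Pld6 (−0.40 ± 0.51), Piwil2 (1.20 ± 0.75) and Piwil4 (1.69 ± 0.88) did not pass. For Mael, Ddx4 and Mov10l1 both EpiC libraries stood above both ESC libraries in TPM, which is no separate support, since their calls come from the same libraries. Gm42418 took 22.7% of the counts in EpiC 2 and 14.7% in ESC 2, and its part in the result was not tested.

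Whether the oocyte difference itself changed between the pairs was tested as (GV − ESC) − (MII − EpiC), which uses no library on both sides and equals (EpiC − ESC) − (MII − GV). It passed for 6 of the 10 genes, where 29.7% of all genes passed in either direction. Of all 25045 genes, 4116 passed with a positive value and 3315 with a negative value. The median was 3.39 over the 10 genes and 0.69 over all genes. The 6 values were positive, 5.69 ± 0.58 for Mael (edgeR adjusted p = 0.000984), 4.85 ± 0.71 for Henmt1 (adjusted p = 0.00229), 3.54 ± 0.61 for Gtsf1 (adjusted p = 0.00354), 3.37 ± 0.67 for Mov10l1 (adjusted p = 0.00601), 4.52 ± 1.34 for Piwil4 (adjusted p = 0.0314) and 3.41 ± 1.08 for Piwil2 (adjusted p = 0.0413). The first 4 held under all 15 other settings. The call of Piwil4 was lost without MII 1, MII 2, GV 1, GV 2, EpiC 2 or ESC 1, where its value ranged from 3.97 to 5.02. The call of Piwil2 was lost without MII 1, GV 1, EpiC 1, EpiC 2 or ESC 1, where its value ranged from 2.78 to 3.43. Asz1 (0.65 ± 0.73), Piwil1 (−1.40 ± 0.59), Ddx4 (1.71 ± 0.67) and Pld6 (−1.83 ± 0.72) did not pass. The 4 comparisons share groups, so their values are not independent of one another.

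Several genes drew their level from more than a single annotated transcript, and the shares of Piwil4 differed between GV and EpiC, although the error of assigning reads to transcripts is unknown. Piwil4 in GV sat on Piwil4-002, which held 100% and 90.5% of the gene's TPM there and starts 22.2 kb downstream of Piwil4-001. Piwil4-001, the longest coding transcript at 3304 bases, was listed at 0 in both GV libraries and held 100% and 62.6% in EpiC. As the reads were assigned, none of the Piwil4 level in GV was that of the longest coding transcript. These shares rest on 33.3 and 52.1 estimated counts of Piwil4 in GV and 23.6 and 69.1 in EpiC. Piwil4-002 held 0.020% and 35.0% in EpiC, so the shares were not stable within EpiC. Piwil1-002, which starts 33650 bases upstream of Piwil1-001, held 43.6% and 34.9% in MII and 42.5% and 38.7% in GV. Mov10l1-201 held 76.0% and 61.3% in GV, whereas Mov10l1-001, whose start lies 85 bases upstream, held 83.8% and 73.6% in EpiC. Mov10l1-201 held 0.00056% and 100% in MII and 42.1% and 1.05% in ESC, so its share was not stable within those groups. The starts of Mov10l1-001 and Mov10l1-201 are close, and reads that the transcripts share cannot be told apart without the assignment error.

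Noncoding transcripts mattered most for Pld6. Pld6-002, annotated as a processed transcript, held 64.4% to 80.4% of the TPM of Pld6 in every library, so the coding transcript Pld6-001 measured 1.06 and 1.94 TPM in MII, 0.828 and 1.58 TPM in GV, 1.45 and 1.23 TPM in EpiC, and 1.37 and 2.18 TPM in ESC. Of the Mov10l1 level, coding transcripts held 53.1% in MII 1, 54.0% in ESC 1, 75.9% in ESC 2 and 76.1% in EpiC 2, and 100% in the other 4 libraries. Gtsf1 in GV was spread over 3 coding transcripts, with Gtsf1-004 at 51.4% and 41.7%, Gtsf1-001 at 28.6% and 25.2% and Gtsf1-005 at 15.3% and 27.4%. Mael-001 held at least 94.8% of Mael and Ddx4-202 at least 98.1% of Ddx4 in every library. Henmt1 overlaps the opposite-strand gene Gm9857, which averaged 1.65 TPM in GV, and Piwil4 overlaps the antisense gene Gm10706, which averaged 0.00398 TPM in GV.

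**Figure D4:**
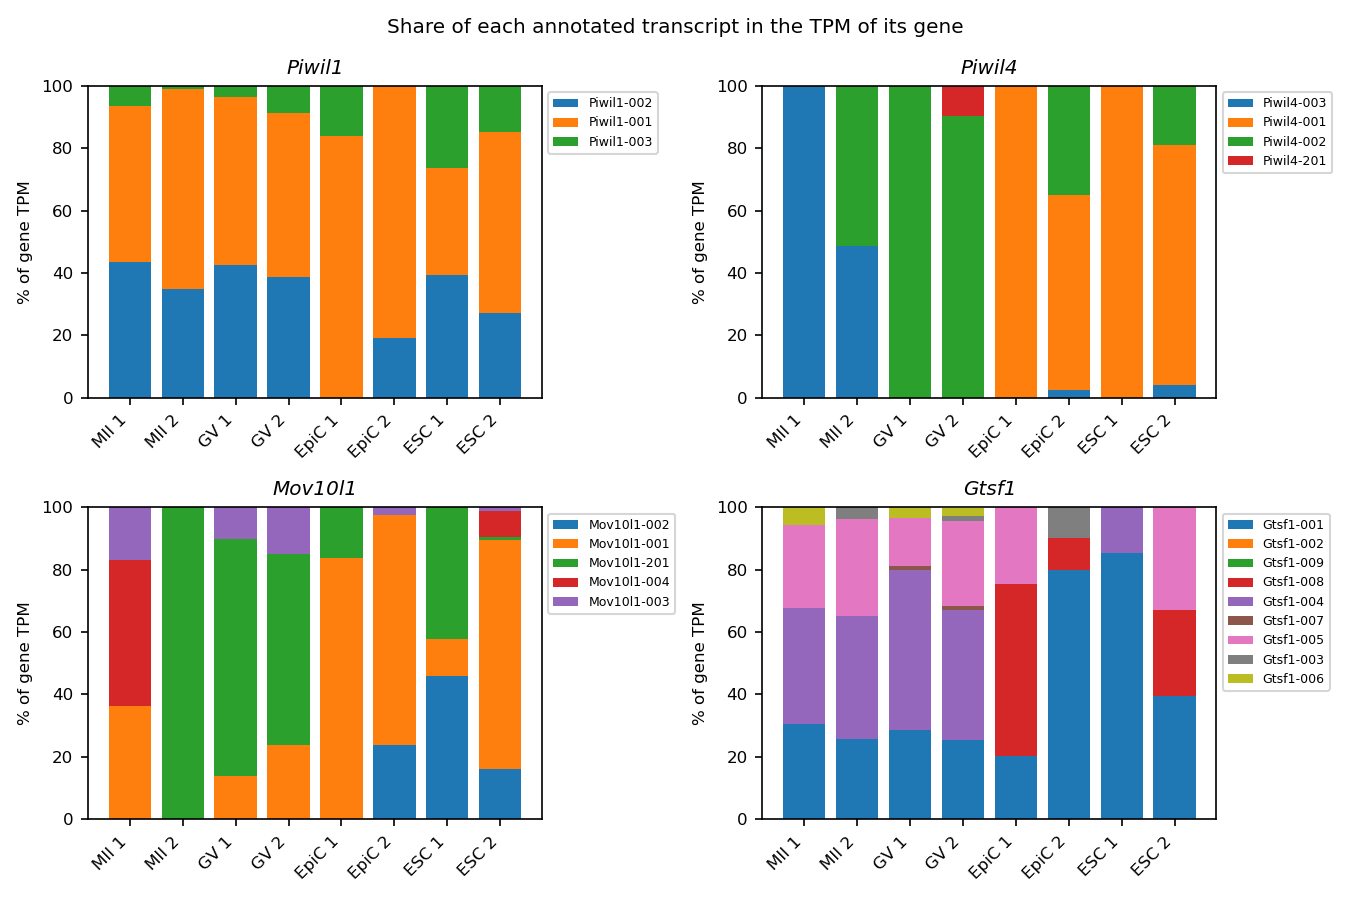
Share of each annotated transcript in the TPM of its gene, in percent, for Piwil1, Piwil4, Mov10l1 and Gtsf1, with the 8 libraries from left to right in the order MII, GV, EpiC, ESC. Piwil4-002 fills 100% and 90.5% of Piwil4 in GV, where Piwil4-001 is at 0. The Piwil4 bars rest on 1 and 4.03 estimated counts in MII, 33.3 and 52.1 in GV and 23.6 and 69.1 in EpiC.

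The rest of the pathway was followed in 21 further genes, among them the Tudor proteins that hold Piwi complexes together. In GV against ESC, 11 of the 21 rose, 4 fell and 6 did not pass, with a median log2 fold change of 2.16, where 28.3% of all genes were higher and 31.3% lower with a median of −0.51. Tdrd1, a Tudor scaffold of the piRNA granules, measured 199 and 90.3 TPM in GV, against 0.0894 and 0.384 TPM in ESC, and rose by 9.46 ± 0.85 on the log2 scale. Tdrd5 rose by 8.16 ± 0.66 and Spocd1, a partner of piRNA-guided DNA methylation, by 8.08 ± 1.15, with 0 and 35 counts of Spocd1 in ESC. Without ESC 2 the fitted value of Spocd1 was 14.3, which is no measure of size because ESC then holds 0 counts. Wdr77 and Prmt5, the 2 parts of the arginine methyltransferase that marks Piwi proteins and also serves splicing factors in all cells, both fell. Wdr77 fell by 6.88 ± 0.97 and Prmt5 fell by 3.37 ± 0.37. Wdr77 measured 0.410 and 1.93 TPM in GV, against 176 and 156 TPM in ESC. Mybl1, the transcription factor of piRNA genes in the testis, fell by 2.23 ± 0.51.

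In MII against EpiC, 12 of the 21 rose, 6 fell and 3 did not pass, with a median of 1.69, where 28.5% of all genes were higher and 39.6% lower. Spocd1 rose by 7.63 ± 1.13, Tdrd9 by 5.55 ± 0.66 and Tex19.1 by 4.14 ± 0.40. Tex19.1, a regulator of retrotransposons, measured 229 and 255 TPM in MII, against 35.6 and 41.6 TPM in EpiC. Wdr77 fell by 9.06 ± 1.08 and Prmt5 fell by 5.18 ± 0.40. Btbd18 was called lower, with 0 and 2 counts in MII, against 82 and 595 counts in EpiC, where its level was 1.13 and 3.24 TPM.

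In MII against GV, 3 of the 21 rose, 11 fell and 7 did not pass, with a median of −1.86, where 17.4% of all genes were higher and 22.2% lower. Mybl1 measured 42.9 and 27.8 TPM in MII, against 3.06 and 1.66 TPM in GV, and rose by 5.39 ± 0.59. Tdrd6 rose by 2.79 ± 0.67 and Tex19.1 by 2.39 ± 0.37. Pnldc1, the exonuclease that trims piRNA ends, fell by 4.19 ± 0.64, Gpat2, a mitochondrial protein of piRNA processing, fell by 3.46 ± 0.83 (−5.95 without MII 2), and Btbd18 was called lower on 0 and 2 counts in MII, against 39 and 135 in GV. The call of Tdrd6 was lost without GV 2, at 2.49 (adjusted p = 0.0729), with a length offset and with both limma fits on TPM.

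In EpiC against ESC, 4 of the 21 rose, 2 fell and 15 did not pass, with a median of −0.12, where 2.63% of all genes were higher and 2.83% lower. Tdrd1 rose by 4.08 ± 0.68, Tdrd6 by 3.52 ± 0.72 and Tdrkh, a mitochondrial Tudor protein, by 3.18 ± 0.39. Tdrkh measured 15.5 and 8.41 TPM in EpiC, against 1.32 and 1.38 TPM in ESC. Morc1, an ATPase needed for transposon silencing in the male germ line, fell by 3.92 ± 0.48, with 3.13 and 1.49 TPM in EpiC, against 43.4 and 26.1 TPM in ESC. Tdrd12 fell by 2.05 ± 0.44 and lost its call without EpiC 2 (−1.555), ESC 1 (−1.945) or ESC 2 (−2.155). Tdrd6 lost its call without EpiC 2 (3.21) or ESC 1 (2.94), and under the length offset or limma at a pseudocount of 1. Over the settings tried, 2 to 5 of the 21 were higher and 1 to 4 lower.

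**Figure D5:**
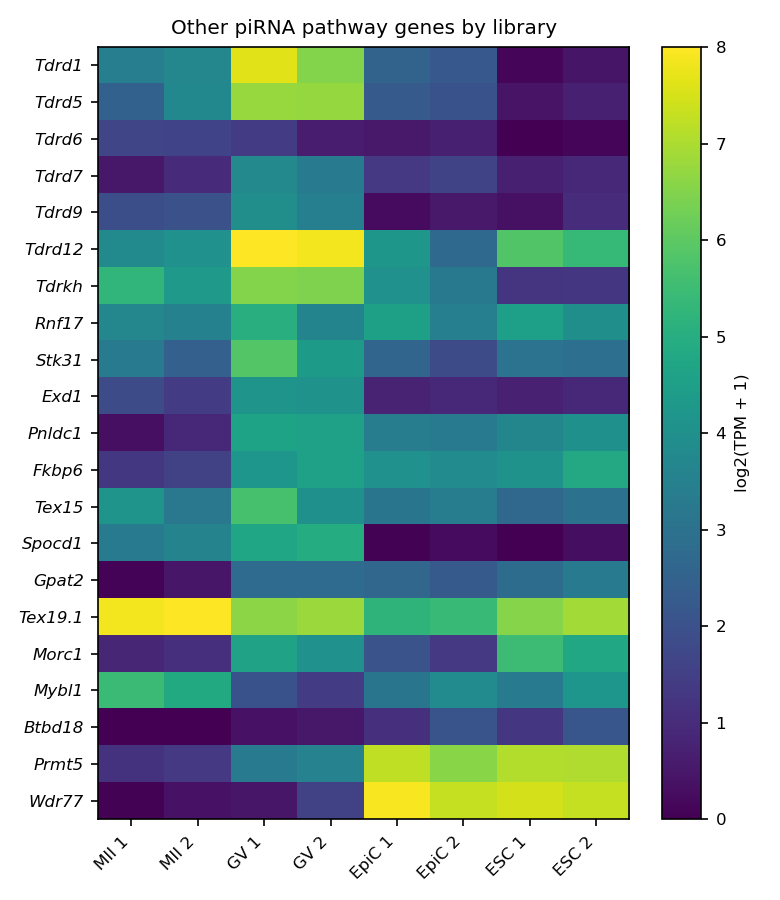
Level of the 21 further piRNA pathway genes in each library, as log2(TPM + 1) by colour, with libraries in the order MII, GV, EpiC, ESC from left to right. Prmt5 and Wdr77 are bright in EpiC and ESC and dark in oocytes, and Tex19.1 is brightest in MII, at 229 and 255 TPM.

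The genes whose pattern was most like that of the 4 most abundant of the 10 were found by Pearson correlation of log2(TPM + 1) over the 8 libraries, among 14806 protein-coding genes. The 8 libraries form groups, so the correlations describe these libraries. For Gtsf1 they were Stau1, Zfp108 and Rnf24 (r of 0.9981, 0.9975 and 0.9975). For Henmt1 they were Myrip, Lrrc8e and Caln1 (r of 0.9982, 0.9975 and 0.9973), and for Asz1 they were Dlg2, Naaladl2 and Agr3 (r of 0.9991, 0.9991 and 0.9988). For Mael, Foxn3, Tom1l1 and Dll3 came closest, with r of 0.982, 0.979 and 0.974. Tom1l1 had the same order of groups as Mael, with means of 8.73 TPM in MII, 54.0 TPM in GV, 21.8 TPM in EpiC and 6.64 TPM in ESC.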

How the data were processed

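For each transcript the authors deposited an estimated count, made with kallisto 0.43 on mm10 per the submitters' processing notes. They also hold the authors' TPM per transcript, with the other deposited columns, transcript length and effective length. The labels give a TRIzol extract and a stranded paired-end kit, and say nothing of poly(A) selection. Positions came from GENCODE M21 on GRCm38, matched by gene ID without version, and promoter windows from RefSeq on GRCm38.p6.

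Transcript counts were added up by gene ID and rounded. In edgeR 4.0.16 (R 4.3.3), filterByExpr kept 25045 genes, and all 8 libraries entered 1 quasi-likelihood fit with a mean for each group, TMM scaling and 4 residual degrees of freedom. Benjamini-Hochberg adjustment ran over all 25045 genes in each contrast at 0.05. All adjusted p-values are from this fit unless limma 3.58.1, DESeq2 1.42.0, another setting or a left-out library is named. Each fit with a library left out was an edgeR fit of its own, with its own filter and adjustment. Each SE is an approximation, obtained by dividing the size of the log2 fold change by the root of its F statistic. In simulated data, with 50 genes changed at each fold and only in GV, the fit returned the folds put in and made few false calls. With 2 libraries a group it recovered 28% of the 4-fold and 54% of the 8-fold changes, so a gene that did not pass is not shown to be unchanged. Far more genes were called in the real data, and no shift in library makeup was simulated. The simulation therefore does not measure false calls under the scaling these libraries needed. The 15 other settings were relative log expression, DESeq2, no count filter, a replicate block, limma on log2(TPM + 1) and log2(TPM + 0.1), a length offset, and leaving out each of the 8 libraries. Where that leaves 1 library in a group, it is assumed to vary like the others. Intervals and p-values do not cover the error of assigning reads to transcripts.

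The 10 genes, the 21 further pathway genes, the markers and the motifs were chosen with earlier results of these data known, so they give no independent support for a pattern. All 10 genes are named in every comparison. Of the 21, up to 3 called genes per direction with the largest fold change are named, and for the 4 genes with the highest group mean TPM, the 3 protein-coding genes of highest correlation. No list was tested as a set.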

Additional observations from a re-analysis of the deposited data

Results flagged for a closer look

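For 6 of the 10 genes, the GV against ESC difference was greater than the MII against EpiC difference. This comes from a test of the difference itself in edgeR, adjusted over all genes. Of all genes 29.7% passed in either direction, 4116 of them with a positive value and 3315 with a negative value. The differences on the log2 scale were 5.691 for Mael (adjusted p = 0.000984), 4.85 for Henmt1 (adjusted p = 0.00229), 3.536 for Gtsf1 (adjusted p = 0.00354) and 3.373 for Mov10l1 (adjusted p = 0.00601). Those of Piwil4, at 4.524 (adjusted p = 0.0314), and of Piwil2, at 3.405 (adjusted p = 0.0413), were lost in 6 and 5 of the 8 settings that leave out 1 library. For Mael, both sides of the contrast moved, with a log2 fold change of −2.37 for MII against GV and 3.32 for EpiC against ESC. For Gtsf1, MII against GV gave −4.63 and EpiC against ESC gave −1.09, which did not pass.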

How the results depend on the processing

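Of 750 values of the 10 genes under other settings, 661 kept direction and side of the threshold, 40 lost the call, 31 gained one and 18 turned direction, none of them called by edgeR with TMM. With limma on log2(TPM + 1) and log2(TPM + 0.1), Pld6 turned to −0.14 and −0.16 in GV against ESC, Piwil1 to −0.81 and −0.88 and Ddx4 to −0.076 and −0.072 in MII against GV, and with log2(TPM + 1) Piwil1 turned to 0.39 in the difference of the pairs. Mael in MII against EpiC turned with relative log expression (0.18), DESeq2 (0.18) and no count filter (0.072). Without 1 library, the log2 fold change of Pld6 in GV against ESC ran from −0.098 to 0.76, that of Mael in MII against EpiC from −0.15 to 0.42, that of Piwil1 in MII against GV from −0.022 to 0.40 and that of Asz1 in EpiC against ESC from −0.27 to 1.29. The cause was not tested. In MII against GV, 8 and 7 were lower with the limma fits (4 with TMM), and 1 was higher with relative log expression, DESeq2 or the replicate block (0 with TMM). Of the 21 pathway genes, 7 were higher in MII against EpiC with log2(TPM + 0.1), and in EpiC against ESC 2 were higher with log2(TPM + 1) and 4 were lower with DESeq2 or no count filter. Over all genes, 4703 were higher in MII against EpiC with log2(TPM + 1), against 7128. In MII against GV, 2408 and 2275 were higher with the limma fits, against 4357, and 8164 and 9107 were lower, against 5572. In EpiC against ESC, 1527, 1303, 1287 and 1151 genes were higher and 1426, 1277, 1538 and 1279 lower with DESeq2, no count filter, log2(TPM + 1) and log2(TPM + 0.1), against 659 and 708. Without 1 library, the 10 genes gave 0 to 3 lower in MII against EpiC, 0 to 1 higher in MII against GV and 1 to 3 higher in EpiC against ESC. The 21 gave 2 to 4 higher and 1 to 2 lower in EpiC against ESC. All genes gave 4922 to 8280 lower in GV against ESC, and 135 to 572 higher and 274 to 684 lower in EpiC against ESC. The replicate block is only a check, since no label says that equal numbers share a source. Same-numbered deviations correlated at 0.31 between MII and GV and at 0.712 between EpiC and ESC, and between −0.0154 and 0.0143 in the other 4 pairs of groups. Depth limits Piwil4 most, with 5 rounded counts in MII.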

Other observations

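Other germ line genes, a list of 12 chosen after values of these data were seen, moved unevenly in EpiC against ESC. Taf7l, a testis form of a general transcription factor subunit, measured 10.4 and 9.80 TPM in EpiC, against 0.364 and 1.23 TPM in ESC, with a log2 fold change of 3.71 ± 0.82 (edgeR adjusted p = 0.0377). The call of Taf7l was lost without GV 1, GV 2, EpiC 1, EpiC 2 or ESC 1, and over the 15 other settings its value ran from 2.67 to 5.01 and its adjusted p up to 0.19. Prdm14, a regulator of naive pluripotency and of primordial germ cells, measured 0.282 and 0.126 TPM in EpiC, against 24.2 and 21.0 TPM in ESC, and fell by 6.84 ± 0.61 (adjusted p = 0.00151). Sycp3 and Sycp1, parts of the synaptonemal complex of meiosis, gave log2 fold changes of 1.53 ± 0.44 (adjusted p = 0.0865) and 1.70 ± 0.65 (adjusted p = 0.195), which did not pass. Dazl, an RNA-binding protein of germ cells, measured 4.95 and 1.66 TPM in EpiC, against 11.3 and 9.82 TPM in ESC, and did not pass at −1.72 ± 0.47 (adjusted p = 0.0736). Slc25a31 did not pass either (adjusted p = 0.151). Nor did Prdm1 (0.27 ± 0.43), Tfap2c (−0.41 ± 0.50), Dnd1 (−0.48 ± 0.67), Dppa3 (0.93 ± 0.37) or Tex101 (−0.053 ± 0.87). Nanos3 did not pass at −1.68 ± 0.83, but was called lower with limma on log2(TPM + 1) and log2(TPM + 0.1). Only Taf7l and Prdm14 of the list were called by edgeR with TMM.

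The 2 GV libraries differed for several of the pathway genes, in both directions. GV 1 stood above GV 2 for Ddx4 (39.3 and 13.7 TPM), Piwil2 (3.93 and 1.62 TPM) and, of the further pathway genes, Tex15 (50.4 and 15.3 TPM), Stk31 (57.2 and 19.6 TPM) and Rnf17 (31.6 and 11.2 TPM), which were picked after their values were seen. GV 2 stood above GV 1 for Pld6, Henmt1, Fkbp6 (17.4 TPM in GV 1 and 23.1 TPM in GV 2), Spocd1, Tex19.1, Prmt5, Btbd18 and Wdr77, and barely for Gpat2. The share of all genes in either direction was not counted.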
